A study of Mus musculus with 8 samples.

Results

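The genes described here are the 8 myogenic transcription factors Myod1, Myf5, Myf6, Myog, Pax7, Mef2a, Mef2c and Mef2d, taken by symbol from a table of raw read counts for 14012 genes. All 8 were in the table. They were measured by RNA sequencing of quadriceps femoris (QF), a large thigh muscle, from 4 mice labelled KO (Grpel1 smk -/-) and 4 mice labelled WT (Grpel1 flox/flox), with 1 library per mouse. GRPEL1 is a co-chaperone of the heat shock protein that pulls proteins into the mitochondrial matrix. Both groups carried the floxed Grpel1 gene. In the knockout mice it was deleted by HSA-Cre-ERT2, a recombinase that is made under the human skeletal muscle α-actin promoter and is active after tamoxifen, which was injected from 5 weeks of age, and the study describes an end point within 5 weeks of the injections. This promoter is active in muscle fibres, so other cells of the muscle are expected to keep the gene. Where it follows body weight, the study calls the floxed littermates untreated in its text. Its body weight figure also has a group of floxed mice that lacked Cre and were given tamoxifen. Whether the 4 sequenced control mice were given tamoxifen is not stated, and an effect of tamoxifen then cannot be told apart from one of the deletion.

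MyoD (Myod1), Myf5, myogenin (Myog) and MRF4 (Myf6) are the myogenic basic helix-loop-helix (bHLH) factors, which pair with E proteins and bind the short DNA motif called the E-box. Myf5 and MyoD commit cells to the muscle fate, myogenin drives the differentiation of myoblasts and falls once fibres are innervated, and MRF4 is the bHLH factor most expressed in adult fibres. Pax7 marks satellite cells, the stem cells that lie beside the fibres. The MEF2 proteins are MADS-box factors that work with the bHLH factors on muscle genes and are held in check by class IIa histone deacetylases.

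In the knockout muscle Myog rose 15.6-fold and Myf5 2.71-fold, Mef2d fell by 19.2% on TMM-scaled libraries (but was higher with library totals alone), and Myod1, Myf6, Pax7, Mef2a and Mef2c did not pass the threshold of an adjusted p under 0.01 in edgeR's quasi-likelihood test over all 14012 genes. Of the 8 genes 2 were thus higher and 1 was lower, or 37.5%, beside 44.7% of all genes (23.6% higher and 21.1% lower). Their median log2 fold change was 0.068, beside 0.065 over the whole table, and 104 of the 14012 genes had a larger log2 fold change than Myog.

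The groups are those of the labels, since the targeted gene did not check them. Grpel1 spans bases 36465185 to 36474077 of chromosome 5 (GRCm38). It had 64.1 to 71.2 CPM (counts scaled to library size) in the control libraries and 59.9 to 71.9 CPM in the knockout libraries, with a log2 fold change of -0.066 (SE 0.078, adjusted p = 0.49 in edgeR's quasi-likelihood test) and no counts per exon. The libraries held 16017565 to 18813042 counts in controls and 16424608 to 20361144 in knockouts, and libraries of a group differed by more than sampling noise, with a chi-square over its degrees of freedom of 18.1 to 43.7 for each pair.

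The DNA just before the start of the 3 genes that passed the test is shown so that the motifs bound by the bHLH and MEF2 factors, and the MEF3 motif of muscle promoters, can be seen in it. The sequences are those of RefSeq on GRCm38.p6, the 250 bases before each start, 5′ to 3′ on the strand of the gene, and capitals mark matches on either strand to the E-box (CANNTG), the MEF2 core (CTANNNNTA) and the MEF3 motif (TCAGGTT). Of the 8 genes 6 have an entry in this RefSeq set.
Myog, chr1:134289754-134290003, plus strand: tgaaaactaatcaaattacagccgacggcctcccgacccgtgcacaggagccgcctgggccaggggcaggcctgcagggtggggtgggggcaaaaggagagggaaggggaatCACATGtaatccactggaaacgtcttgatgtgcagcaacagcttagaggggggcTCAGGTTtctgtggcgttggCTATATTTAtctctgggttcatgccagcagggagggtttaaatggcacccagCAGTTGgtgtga
Myf5, chr10:107486135-107486384, minus strand: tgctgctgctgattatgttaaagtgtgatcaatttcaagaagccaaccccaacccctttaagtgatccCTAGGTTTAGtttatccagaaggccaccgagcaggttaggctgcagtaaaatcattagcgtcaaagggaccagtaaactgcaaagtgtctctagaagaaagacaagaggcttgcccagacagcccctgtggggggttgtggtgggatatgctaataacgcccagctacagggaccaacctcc
Mef2d, chr3:88142122-88142371, plus strand: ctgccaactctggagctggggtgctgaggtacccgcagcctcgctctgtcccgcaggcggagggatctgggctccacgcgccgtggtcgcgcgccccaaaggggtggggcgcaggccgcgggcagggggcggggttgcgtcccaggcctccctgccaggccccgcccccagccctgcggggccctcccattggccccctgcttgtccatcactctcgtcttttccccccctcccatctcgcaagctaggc

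The Myog window held all 3 kinds of motif. Counted back from the start, its E-boxes CACATG and CAGTTG began at -138 and -12, the MEF2 core CTATATTTA at -64 and the MEF3 motif at -84. The Myf5 window held the MEF2 core CTAGGTTTA from -182, read on both strands with an overlap, and no E-box, and the Mef2d window held none of the 3 motifs. The windows of Pax7 and Mef2a, which did not pass the test, held none either, and of the 3 windows of Mef2c 1 held E-boxes and the MEF3 motif (AACCTGA on this strand), 1 held an E-box and the MEF2 core CTAACGATA, and 1 held none. Of 32851 RefSeq promoter windows of this length 66.2% held an E-box, 18.96% the MEF2 core and 3.49% the MEF3 motif. A match is a string of letters and was not tested for binding. The MEF2 motif and the CArG box of SRF, searched by name with their ambiguous bases, were in none of these 3 windows and in 2.92% and 1.47% of all windows.

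Myog is the factor of terminal differentiation and the one of the 8 that differed most. The gene (Entrez Gene 17928) lies on chromosome 1 from 134290004 to 134292548 of GRCm38, on the plus strand, and overlaps no other gene of the GENCODE M21 annotation. The control replicates 1 to 4 had 70, 144, 101 and 64 counts and the knockout replicates 1 to 4 had 1993, 2274, 2165 and 3399 counts. As CPM, counts scaled to the TMM-adjusted library size and the scale used below, these were 5.66, 9.43, 7.23 and 4.03 CPM against 83.1, 104, 89.4 and 135 CPM. Every knockout library was far above every control library, and knockout replicate 4 was the highest. The mean went from 6.59 ± 2.30 to 103 ± 23.2 CPM (SD, n = 4 each), with a log2 fold change of 3.96 (SE 0.25, adjusted p = 1.0e-06 in edgeR's quasi-likelihood test, Benjamini-Hochberg adjusted).

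Myf5, a factor of muscle determination, was the other gene that rose. It lies on chromosome 10 from 107482908 to 107486134 on the minus strand and had 14, 19, 30 and 19 counts in controls against 90, 94, 84 and 101 in knockouts. These were 1.13, 1.24, 2.15 and 1.20 CPM against 3.75, 4.30, 3.47 and 4.01 CPM. The groups did not overlap, although control replicate 3 stood above the other controls, and every count was above the 3 counts that a count of 0 allows, at most 0.242 CPM in these libraries. The log2 fold change was 1.44 (SE 0.21, adjusted p = 0.00026 in edgeR's quasi-likelihood test). Of the 8 factors 3 had no overlap between the groups (Myog, Myf5 and Mef2d), beside 53.4% of all genes.

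Myf6 starts a few kilobases from Myf5, with 6725 bases between the spans, but its knockout and control levels overlapped. This gene, on chromosome 10 from 107492860 to 107494729 on the minus strand, encodes the factor of adult fibres. It had 92.8, 80.3, 79.0 and 83.0 CPM in controls and 80.8, 89.7, 89.2 and 74.7 CPM in knockouts. The groups overlapped and their means were 83.8 ± 6.25 and 83.6 ± 7.19 CPM. The log2 fold change was -0.0032 (SE 0.082, adjusted p = 0.98 in edgeR's quasi-likelihood test).

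Myod1, on chromosome 7 from 46376474 to 46379092 on the plus strand, stood out for its spread. The controls lay close together at 19.7, 16.9, 18.3 and 15.8 CPM, while the knockouts were at 12.8, 28.99, 11.5 and 24.7 CPM. Knockout replicates 2 and 4 were above every control and replicates 1 and 3 below every control, so the coefficient of variation was 9.60% in controls and 44.6% in knockouts. With means of 17.7 ± 1.70 and 19.5 ± 8.69 CPM the log2 fold change was 0.14 (SE 0.27, adjusted p = 0.68 in edgeR's quasi-likelihood test), and its sign turned without knockout replicate 2 (-0.13) or replicate 4 (-0.020). No test of the spread was made.

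Pax7, on chromosome 4 from 139738081 to 139832968 on the minus strand, was low in this bulk tissue, with 24 to 52 counts in controls and 57 to 94 in knockouts. Its CPM values were 1.94, 2.09, 2.72 and 3.28 against 2.38, 2.98, 3.14 and 3.74. The groups overlapped, and the mean was 2.51 ± 0.614 CPM against 3.06 ± 0.559 CPM, a log2 fold change of 0.28 (SE 0.21, adjusted p = 0.28 in edgeR's quasi-likelihood test). In bulk RNA, fewer cells of a type and less RNA per cell cannot be told apart, for Pax7 as for the other factors. On the FPKM scale, which divides by exon length as well as library size, the ratio of Myf5 to Pax7 was 1.20, 1.22, 1.62 and 0.750 in controls and 3.24, 2.97, 2.27 and 2.21 in knockouts, with no overlap.

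**Figure D1:**
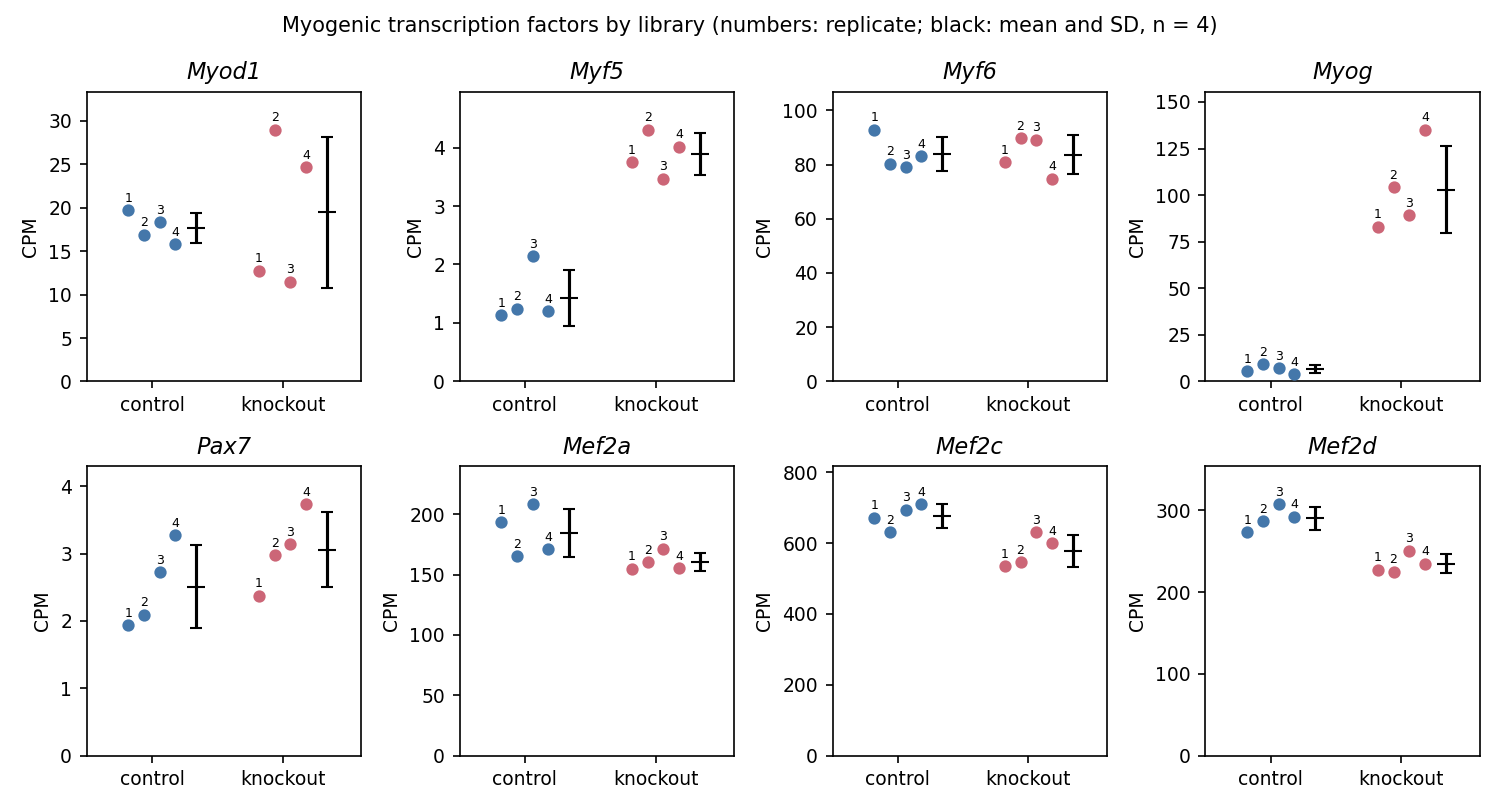
Level of each of the 8 factors in each library, in CPM (counts scaled to library size, linear axis from 0), with the replicate number at each point and the mean and SD of the 4 libraries of a group in black. Myog and Myf5 were higher in every knockout library than in any control, Mef2d was lower in every knockout library on this TMM scale but higher by 0.36 in log2 with library totals alone, and Myod1 split into values above and below the controls.

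On TMM-scaled libraries all 3 MEF2 genes were lower in the knockout mean, a direction that turned with library totals alone as the scale. Per exon length Mef2c was the highest of the 8 genes in both groups, at 104 ± 5.12 FPKM in controls and 86.2 ± 8.19 FPKM in knockouts (FPKM scale, on which Myf6 was above Mef2d and Mef2a). Mef2d, on chromosome 3 from 88142372 to 88172091 on the plus strand, had 273, 287, 308 and 292 CPM in controls and 227, 225, 251 and 235 CPM in knockouts. All knockout libraries were below all controls, with means of 290 ± 14.3 and 234 ± 11.5 CPM and a log2 fold change of -0.31 (SE 0.069, adjusted p = 0.0034 in edgeR's quasi-likelihood test). The call was lost when control replicate 3 (adjusted p = 0.0122) or knockout replicate 1 (0.0146), 2 (0.0104) or 4 (0.0115) was left out, with log2 fold changes between -0.28 and -0.32 in these 4 edgeR fits. Its end overlaps the antisense gene 1700113A16Rik, which was at 0.309 CPM in controls and 0.446 CPM in knockouts.

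Mef2c, on chromosome 13 from 83504034 to 83667079 on the plus strand, had 672, 630, 695 and 710 CPM against 534, 546, 630 and 599 CPM. Knockout replicate 3 and control replicate 2 were level, so the groups just touched, and the log2 fold change of -0.23 (SE 0.083) had an adjusted p of 0.036 in edgeR's quasi-likelihood test. DESeq2, run on the same counts, gave -0.27 with an adjusted p of 0.0039. Mef2a, on chromosome 7 from 67231163 to 67372858 on the minus strand, had 193, 165, 208 and 171 CPM against 155, 160, 171 and 155 CPM, with overlapping groups and a log2 fold change of -0.20 (SE 0.086, adjusted p = 0.064 in edgeR's quasi-likelihood test). In GENCODE M21 the span of Mef2a also overlaps Lysmd4 on the other strand, and Gm44667 and Gm44668 on the same strand. Whether strand was used in the counting is not stated.

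The directions of the small changes depend on the scale. The 20 most abundant genes took 36.5% to 40.1% of the counts in controls and 19.7% to 23.5% in knockouts, and the TMM factors, which correct for such a shift, were 0.747 to 0.844 and 1.19 to 1.33. With library totals alone 8498 genes were higher and 873 lower, against 3303 and 2962 with TMM, and the median over the whole table was then 0.73 in log2. Relative to that median Myog was at 3.91, Myf5 at 1.38, Pax7 at 0.21, Myod1 at 0.10, Myf6 at -0.068, Mef2a at -0.26, Mef2c at -0.29 and Mef2d at -0.37.

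**Figure D2:**
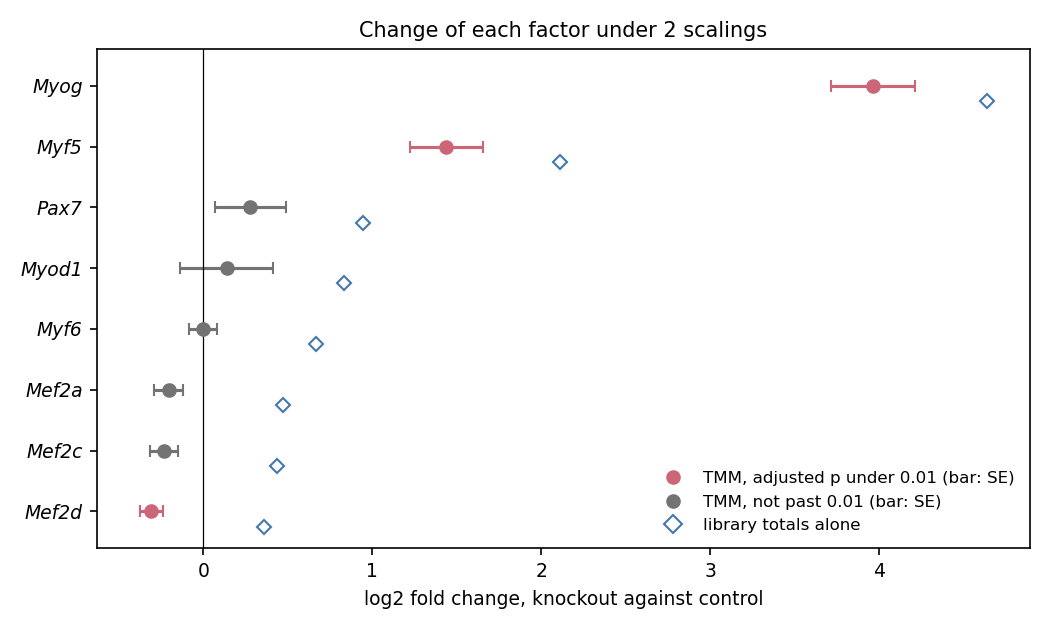
Log2 fold change of each factor, knockout against control, with TMM-scaled libraries (filled points, bars of 1 SE) and with library totals alone (open diamonds). Myog (3.96) and Myf5 (1.44) were above 0 under both scalings, while the MEF2 genes, Mef2d at -0.31, were below 0 with TMM and above 0 with totals alone.

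The make-up of the bHLH family shifted towards Myog. Per exon length, MRF4 transcripts made up 82.0% ± 2.43 of the summed FPKM of the 4 bHLH genes in controls (80.0% to 84.9%) and 45.5% ± 6.90 in knockouts (36.0% to 51.2%). The share of Myog went from 5.46% ± 1.99 to 46.4% ± 5.68, and that of Myod1 from 11.7% ± 0.695 to 6.88% ± 2.46, both without overlap between the groups. Myf5 had 0.847% ± 0.310 and 1.26% ± 0.105, with control replicate 3 inside the knockout range. The sum of the 4 genes was 82.6 ± 5.43 FPKM in controls and 146 ± 16.5 FPKM in knockouts.

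In the controls Myf6 was thus the leading bHLH transcript at 67.8 ± 5.26 FPKM, followed by Myod1 at 9.63 ± 0.937, Myog at 4.49 ± 1.57 and Myf5 at 0.692 ± 0.230 FPKM. In the knockouts Myog and Myf6 had similar levels, 68.1 ± 15.1 and 65.6 ± 6.26 FPKM, within their spread. The ratio of Myog to Myf6 was 0.051, 0.099, 0.077 and 0.041 in controls and 0.868, 0.979, 0.845 and 1.53 in knockouts, so Myog passed Myf6 in knockout replicate 4.

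The shares within the MEF2 family overlapped between the groups. Mef2c held 55.2% ± 1.35 of the summed FPKM of the 3 genes in controls and 55.8% ± 1.10 in knockouts, Mef2d 27.9% ± 1.13 and 26.8% ± 0.512, and Mef2a 16.9% ± 1.34 and 17.5% ± 0.689. Their sum was 189 ± 8.31 and 154 ± 12.4 FPKM, on the scaling of the authors.

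**Figure D3:**
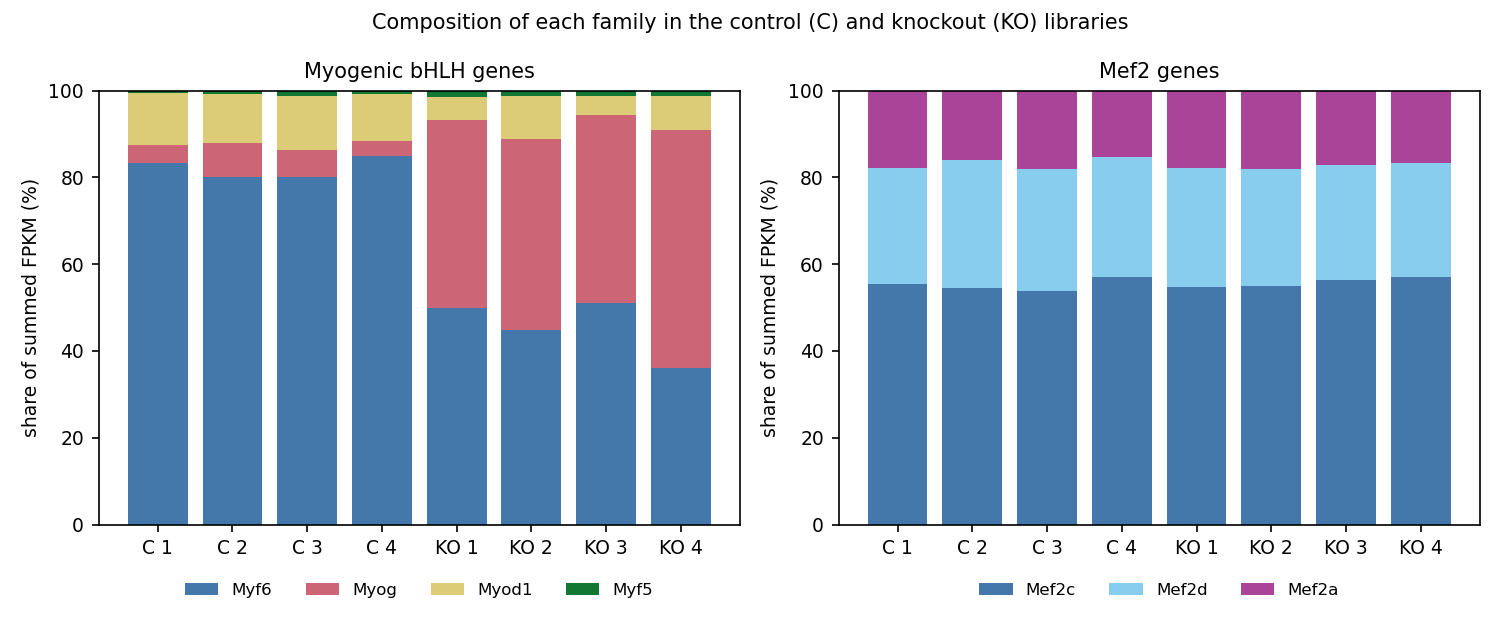
Share of each gene in the summed FPKM (counts scaled to exon length and library size) of the 4 myogenic bHLH genes and of the 3 MEF2 genes, 1 bar per control (C) and knockout (KO) library. Myog took 3.48% to 7.92% of the bHLH sum in controls and 43.2% to 54.9% in knockouts, while the shares of the MEF2 genes overlapped.

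The factors act with partners and against inhibitors, and 5 lists of genes known for these roles were read beside them. Of 29 partners and coactivators in the table, 6 were higher and 15 lower (72.4% past the threshold, median log2 fold change -0.65, all genes 44.7% and 0.065), which became 11 higher and 5 lower with library totals alone. When knockout replicate 2, 3 or 4 was left out, 3 partners were higher. Of the 3 E proteins, which pair with the bHLH factors, 2 rose. Tcf12 had 30.2, 29.7, 31.6 and 34.9 CPM in controls and 51.4, 59.5, 54.2 and 54.1 CPM in knockouts, a log2 fold change of 0.79 (SE 0.075), and Tcf3 went from 20.5 ± 1.54 to 25.8 ± 1.84 CPM. Tcf4 had a log2 fold change of 0.14 and did not pass.

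The homeodomain factors Six2 and Six4 fell on TMM-scaled libraries. Six4 went from 24.9 ± 1.19 to 14.8 ± 1.26 CPM (log2 fold change -0.75) and Six2 from 15.8 ± 10.1 to 4.81 ± 1.08 CPM (-1.71). Among the EYA coactivators Eya1 fell (-1.19) and Eya3 rose (0.80). The muscle-enriched TEAD cofactor Vgll2 (0.82), the TEAD factor Tead4 (0.94) and the homeodomain factor Pitx3 (1.19) were higher. Smarcd3, the chromatin remodelling subunit recruited by MyoD, and Mapk14, the p38α kinase that acts on MEF2 and E proteins, had with Six2 the largest falls past the threshold, at -1.48 and -1.75.

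Of 31 inhibitors and repressors 7 were higher and 6 lower (41.9%, median -0.18, all genes 44.7% and 0.065). With library totals alone 15 were higher and 2 lower. Dach2, known as a repressor of Myog in innervated muscle, had 27, 27, 20 and 42 counts in controls and 0, 2, 2 and 2 counts in knockouts. The knockout counts were within the 3 counts that a count of 0 allows, so no fold is given. Hdac4, a class IIa deacetylase that represses MEF2, fell from 52.9, 54.7, 92.3 and 58.9 CPM to 29.4, 29.9, 35.8 and 32.6 CPM (log2 fold change -1.02, SE 0.17, adjusted p = 5.3e-04 in edgeR's quasi-likelihood test), while Hdac9 was at 4.79 ± 1.32 and 6.17 ± 1.26 CPM and did not pass.

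The ID proteins take E proteins away from the bHLH factors. Id2 rose from 1.78, 1.64, 2.72 and 2.205 CPM to 5.80, 8.75, 4.17 and 6.12 CPM (log2 fold change 1.57, SE 0.25), and the values of Id1 (0.41) and Id3 (0.24) did not pass. Mdfi, an inhibitor of the MyoD family, had 5 to 12 counts in controls and 51 to 89 in knockouts, a log2 fold change of 2.39. The MEF2 corepressor Cabin1 and the deacetylase Sirt1 each rose by 0.64. Myostatin (Mstn), an inhibitor of muscle growth, fell by 1.49 and the bHLH repressor Bhlhe41 fell by 0.89 on the log2 scale with TMM. Falls in this list depend on the scale, with 6 inhibitors lower with TMM and 2 with library totals alone.

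Of 24 genes of early differentiation and fusion, many of them known targets of MyoD and myogenin, 17 were higher and 3 lower. That was 83.3% with a median of 2.78, beside 44.7% and 0.065 for all genes. With library totals alone none of the 24 was lower. The embryonic myosin heavy chain Myh3 had 27, 41, 34 and 46 counts in controls and 4233, 9152, 4640 and 11579 in knockouts, a log2 fold change of 6.92 (SE 0.40, adjusted p = 6.5e-07 in edgeR's quasi-likelihood test). The perinatal Myh8 had 7.51, 5.43, 7.01 and 5.67 CPM against 484, 1050.0, 470 and 690 CPM. In both genes knockout replicates 2 and 4 were above replicates 1 and 3, the same 2 libraries in which Myod1 was above the controls.

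The embryonic acetylcholine receptor subunit Chrng had 1, 5, 3 and 0 counts in controls and 545, 692, 582 and 1098 in knockouts, and the fusion protein myomixer (listed as Gm7325) had 0, 2, 1 and 0 against 89, 183, 103 and 197 counts. For both genes most control counts were within 3 of 0, so no fold is given. Chrna1, the α subunit of the receptor, went from 17.9, 24.1, 20.04 and 3.91 CPM to 126, 172, 139 and 170 CPM (log2 fold change 3.21, SE 0.41). The other receptor and junction genes were looked at after their values were seen. Chrnd rose by 3.94, Musk by 2.35 and Chrnb1 by 1.51 on the log2 scale.

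Not all genes of the list rose. Of the 18 promoter windows found for it 72.2% held an E-box and 27.8% the MEF2 core, beside 66.2% and 18.96% of all windows. Actc1, the cardiac actin that is also made in young skeletal muscle, was at -1.47, the adhesion gene Jam2 at -0.72 and Fbxo32, the ubiquitin ligase atrogin-1, at -1.04 in log2 with TMM, calls that were lost with library totals alone. Fbxo32 had 707, 531, 734 and 898 CPM against 392, 265, 467 and 274 CPM. Trim63, a ubiquitin ligase whose promoter is also known to be bound by myogenin and which was picked after its value was seen, was at -0.63 with an adjusted p of 0.0117 in edgeR's quasi-likelihood test. Chosen in the same way, the cell cycle inhibitor Cdkn1a was at 3.58 and the factor Runx1, known from denervated muscle, at 3.39.

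**Figure D4:**
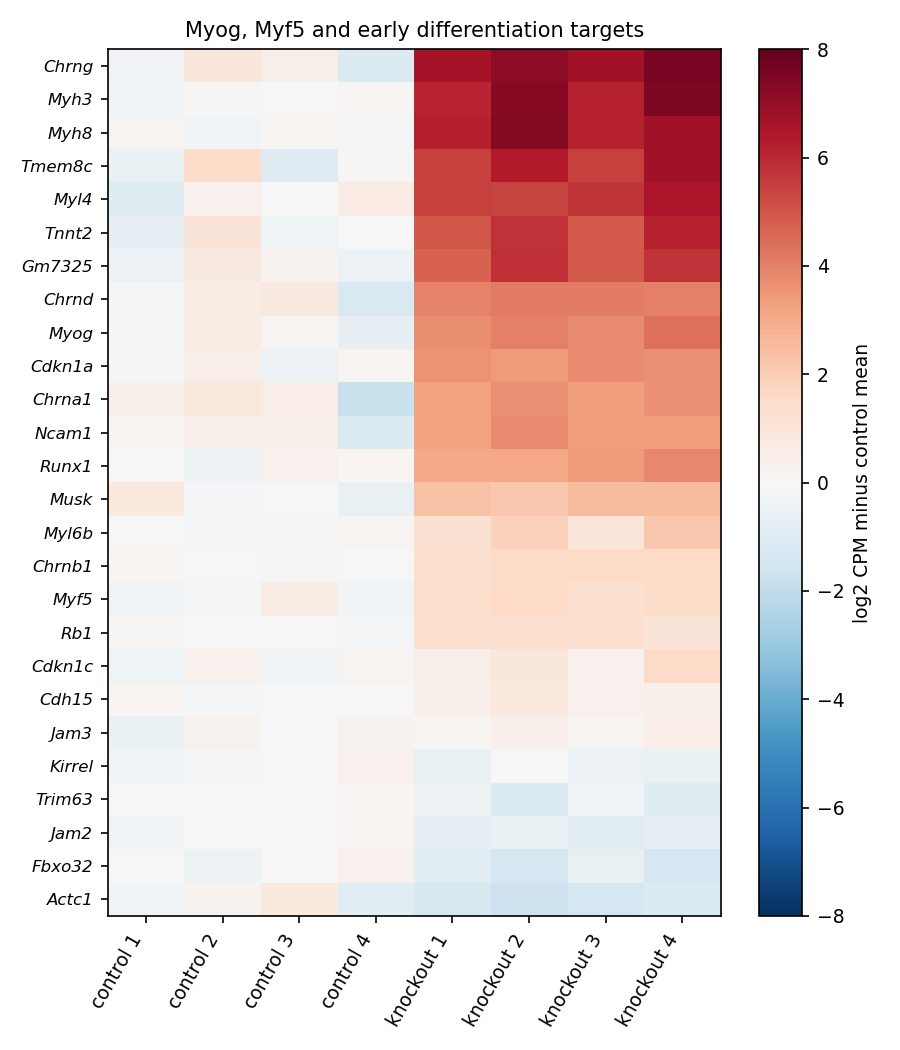
Log2 CPM of Myog, Myf5 and the 24 early differentiation and fusion genes in each library, minus the mean of the 4 controls (colour, blue lower and red higher). The 4 knockout columns are deepest red for Chrng, Myh3 and Myh8. They are below the control mean for Actc1, Fbxo32, Jam2, Trim63 and Kirrel, in part faintly. The calls of Actc1, Fbxo32 and Jam2 were lost with library totals alone, and Trim63 and Kirrel did not pass the threshold with TMM.

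Genes of the mature fibre moved in both directions. Of 35 such genes, among them known MEF2 targets, 8 were higher and 19 lower (77.1%, median -0.56, all genes 44.7% and 0.065). With library totals alone 14 were higher and 14 lower. The fast myosin Myh4, the most abundant of these, had 115600, 92730, 120600 and 86740 CPM in controls and 21210, 17660, 26930 and 16520 CPM in knockouts (log2 fold change -2.34). Myoglobin (Mb, -3.15), the muscle phosphoglycerate mutase Pgam2 (-2.13) and the nuclear receptor Nr4a1 (-1.86), which are known MEF2 targets, were lower too. Other known MEF2 targets of the list were looked at after their values were seen. Ckm (-1.75), Myom1 (-1.07), Hrc (-0.84), Slc2a4 (-0.71), Jun (-0.57) and Ppargc1a (-0.54) were lower. Hspb7 rose by 2.79, and Xirp1 (0.56), Srpk3 (0.24) and Lmod3 (0.24) did not pass. The 4 largest rises past the threshold among the 35 genes were of genes known from slow fibres. Tnni1 had 2.34, 2.16, 3.29 and 1.13 CPM against 43.7, 76.2, 50.9 and 123 CPM (5.06). It was followed by Tnnc1 (4.67), Tnnt1 (3.68) and the Z-disc gene Myoz2 (3.18). The slow myosin Myh7, looked at after its value was seen, was at 3.93 with overlapping groups. Its adjusted p was 0.0119 in edgeR's quasi-likelihood test. Looked at in the same way, the slow light chains Myl2 (2.81) and Myl3 (0.21) also had overlapping groups, and Myl3 did not pass. Not all fast myosins fell. The fast IIx myosin Myh1, also looked at after its value was seen, rose past the threshold without overlap between the groups. Its means were 7246 ± 2162 CPM in controls and 16074 ± 3194 CPM in knockouts. Chosen likewise, the fast IIa myosin Myh2 had means of 959 and 1108 CPM with overlapping groups and did not pass. Of the 35 promoter windows of this list 88.6% held an E-box and 45.7% the MEF2 core.

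Of 21 satellite cell markers 8 were higher and 3 lower (52.4%, median 0.31). Of all genes 44.7% passed, 23.6% higher and 21.1% lower, with a median of 0.065. Without control replicate 1, 5 of the markers were lower, and with library totals alone none was lower. Ncam1 rose from 11.0, 13.1, 13.5 and 4.60 CPM to 93.3, 136, 97.9 and 99.8 CPM (log2 fold change 3.34, SE 0.28), and it is also known as a gene of denervated fibres. Peg3 (1.68), the laminin receptor subunit Itga7 (1.44) and Tnfrsf12a (1.32) rose. Of the genes known from quiescent satellite cells Calcr had 10, 19, 24 and 22 counts against 6, 13, 5 and 10, and Chrdl2 had 6, 25, 23 and 24 against 6, 7, 10 and 9, with log2 fold changes of -1.83 and -1.97. Cd34, which is shared with endothelium, fell by 0.63. The 2 lists of satellite and early genes both hold Ncam1 and Cdh15.

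**Figure D5:**
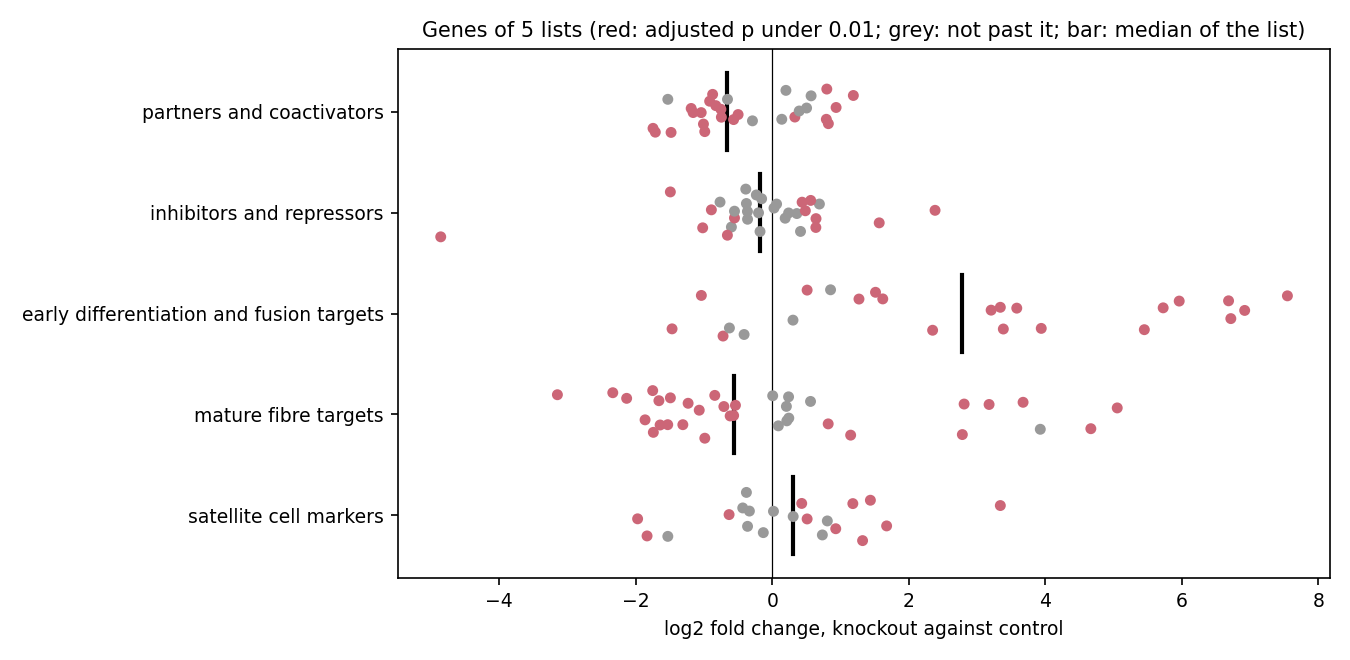
Log2 fold change, knockout against control on TMM-scaled libraries, of every gene of the 5 lists (red, adjusted p under 0.01, grey, not past it), with the median of each list as a black bar. The early differentiation and fusion genes had a median of 2.78 and the mature fibre genes one of -0.56, and with library totals alone the partners turned from 6 higher and 15 lower to 11 and 5.

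Markers of other cells of the muscle were summed per library on the TMM scale, and no sums were made with library totals alone. With totals alone the median over all genes was 0.73 higher in log2, so the falls below are those of the TMM scale. Some sums differed between the groups and others overlapped. Of all genes 23.6% were higher and 21.1% lower with TMM. The 10 muscle fibre markers, all lower, summed to 252200 to 336200 CPM in controls and 80200 to 112500 CPM in knockouts. The endothelial sum was 346 to 491 CPM against 258 to 285 CPM (6 of 8 genes lower), that of fibroblasts and fibro-adipogenic cells 1404 to 1904 against 575 to 836 CPM (4 of 8 lower) and that of pericytes 587 to 789 against 430 to 497 CPM (2 of 5 lower). Macrophage markers summed to 90.9 to 240 CPM against 190 to 354 CPM (1 of 12 higher). Neutrophil markers, with Ly6g and Mpo not in the table, summed to 0.458 to 4.201 against 17.3 to 37.8 CPM (1 of 3 higher). Adipocyte markers ranged from 250.6 to 1505 CPM against 725 to 2624 CPM (1 of 8 higher), and with their sum as a covariate, an alternative added after the data were seen, Mef2d was at -0.27 with an adjusted p of 0.0104 in edgeR's quasi-likelihood test.

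Schwann cell markers (42.5 to 137 CPM against 66.7 to 111 CPM), erythroid markers (41.1 to 102 against 8.61 to 96.7 CPM) and the 3 lymphocyte markers in the table (4.26 to 6.14 against 5.05 to 9.18 CPM) overlapped between the groups. The satellite cell markers summed to 645 to 738 CPM against 979 to 1161 CPM, with 8 of the 21 genes higher and 3 lower. Itgb1 (means of 295 and 299 CPM), Itga7 (107 and 289 CPM) and Ncam1 (10.6 and 107 CPM) held much of this sum. The 6 cardiac and smooth muscle markers in the table, with Nppa, Myl7 and Ryr2 not in it, summed to 3535 to 3666 against 5757 to 6874 CPM. Of these 6 genes 1 was higher and 3 were lower. The higher gene was desmin (Des), also in the list of mature fibre genes. It made up most of the sum, with means of 3419 and 6038 CPM. The part of these differences in the changes of the 8 factors was not tested.

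The genes whose log2 CPM followed each factor most closely over the 8 libraries, among 9543 genes with a mean of at least 100 counts, mostly shared its difference between the groups. For Myog these were Srsf1 (Pearson r = 0.999), Plagl2 (0.995) and Rbfox2 (0.995), for Myf5 Nek1 (0.997), Egr1 (0.991) and Msto1 (0.990), and for Mef2d Gab1 (0.995), H2afv (0.994) and Camk2b (0.991). Mef2a was followed by Rpap3 (0.984), Mospd1 (0.982) and Ncoa6 (0.969), and Mef2c by Wdfy3 (0.984), Bmt2 (0.980) and Rmnd5a (0.966). The values for Pax7 were lower, with Mtmr12 (0.928), Cep164 (0.900) and Plscr3 (0.898), as were those for Myf6, with Cul1 (0.859), Rab22a (0.854) and Dpep1 (0.841).

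The pattern of Myod1, with knockout replicates 2 and 4 high and 1 and 3 low, was shared most by Spata2 (0.945), Actb (0.896) and Slx4 (0.873). Actb, the cytoplasmic β-actin gene, had 298, 300.0, 330.0 and 322 CPM in controls and 270.0, 356, 255 and 337 CPM in knockouts. These correlations are descriptions over libraries that share their group, their depth and their scaling.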

How the data were processed

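Strand-specific libraries of polyadenylated RNA were prepared by the authors (NEBNext Ultra II Directional). The deposited table holds raw counts for each gene, which the authors obtained with bcl2fastq 2.20.0.422, cutadapt and STAR 2.5.4b (build GRCm38), counting exonic read pairs in Rsubread 2.6.4, per the methods. Only uniquely and confidently mapped, non-duplicate pairs were counted, chimeras aside, and the table keeps genes with at least 50 reads over the libraries. The annotation release and the use of strand are not given in the sources used here. The deposited FPKM values, which the authors derived from those counts and the exon width, were used here for levels between genes and for shares. The authors' own log2 fold changes and p-values of DESeq2 1.32.0 are also in the table and were not used.

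All 14012 genes were tested with edgeR 4.0.16 (R 4.3.3, limma 3.58.1) by the quasi-likelihood test on TMM-scaled counts with no term but the label, and an adjusted p (Benjamini-Hochberg) under 0.01 was called. For CPM the library size was multiplied by its TMM factor, and a prior count of 2 was added for log2 CPM. The 3 counts that a count of 0 allows at 95% cover counting error alone, while SDs measure the spread between the 4 mice of a group. The p-values weigh the difference between the groups against a spread within groups whose estimate draws on all genes.

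The 8 genes and the lists of partners, inhibitors, targets and markers were chosen with earlier results of these data known. Named were the 8 genes and Grpel1, up to 4 of the largest rises and 4 of the largest falls past the threshold in each list, a few genes fixed for their role (Hdac4, Hdac9, Dach2, Id1, Id2, Id3, Tcf3, Tcf4, Tcf12, Chrna1, Chrng, Myh3 and Six4), and the 3 genes most like each factor. Other genes were chosen after their values were seen. The alternatives were other scalings (RLE, upper quartile, totals alone), the 20 most abundant genes left out, filterByExpr, DESeq2 1.42.0, robust dispersion, the replicate number as a block, an adjusted p under 0.05 and each library left out. On simulated counts of 13919 genes with 200 changed, edgeR recovered 90% of changes of 1 and 98% of changes of 2 on the log2 scale. It called 5 unchanged genes. The simulated rises and falls were equal in number, with no shift in the share of abundant genes. They therefore do not bear on the choice of scaling, or on changes smaller than 1. A further gene fixed for its role is not reported here, and protein sequences were not used.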

Additional observations from a re-analysis of the deposited data

Results flagged for a closer look

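Of 110 groups of 4 libraries, from 55 genes, 8 had a library that stood apart from the other 3 by Dixon's criterion, where chance gives about 5.5 (1 in 20). Among the 8 factors this was Myf5 in control replicate 3, at 2.15 CPM beside 1.13 to 1.24 CPM. Tead4 stood apart in control replicate 1 (16.6 CPM beside 7.005 to 8.09 CPM) and in knockout replicate 3 (19.9 CPM beside 18.3 to 18.4 CPM). Hdac4 was at 92.3 CPM in control replicate 3 beside 52.9 to 58.9 CPM, and Tnnt1 at 12.3 CPM in the same library beside 3.53 to 4.71 CPM. Chrdl2 was at 0.485 CPM in control replicate 1 beside 1.51 to 1.65 CPM. In the knockouts Ncam1 was at 136 CPM in replicate 2 beside 93.3 to 99.8 CPM, and Dach2 at 0.0 CPM in replicate 1 beside 0.0795 to 0.0916 CPM, a difference of 2 counts.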

How the results depend on the processing

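Of 413 values under the alternatives, 373 held, which for a log2 fold change means the same direction and side of the threshold, for a count a value within 1.5 times, and for a share a move under 1 SD between replicates. With library totals alone 7 factors were higher and 0 lower, with Myf6 at 0.66, Pax7 at 0.94, Mef2a at 0.47, Mef2c at 0.44 and Mef2d at 0.36 on the log2 scale. This scaling leaves out the correction for abundant genes by construction. It gave 11 partners higher and 5 lower, and 15 inhibitors higher and 2 lower. It also gave 14 mature fibre genes higher and 14 lower, and 0 early genes and 0 satellite cell markers lower. With upper-quartile factors Myf6 was at 0.028. DESeq2 called 2 factors lower, with Mef2c at -0.27. At an adjusted p under 0.05, 2 factors (Mef2c at -0.23) and 6 satellite cell markers were lower. With the adipocyte covariate, added after the data were seen, 0 factors were lower and Mef2d was at -0.27. Without the 20 most abundant genes 12 mature fibre genes were lower, since listed genes were among those left out. Where not given, the cause was not tested.

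With each library left out in turn, 2 factors were higher in every fit and 0 to 1 lower (0 without control replicate 3 or knockout replicate 1, 2 or 4). The log2 fold change ranged from -0.13 to 0.29 for Myod1, from -0.069 to 0.049 for Myf6 (above 0 without control replicate 1 or knockout replicate 1 or 4), from 3.78 to 4.196 for Myog, from 1.35 to 1.70 for Myf5 and from -0.37 to -0.28 for Mef2d. The partners higher were 3 to 5 (3 without knockout replicate 2, 3 or 4) and the satellite cell markers lower 3 to 5 (5 without control replicate 1). Nothing in the labels ties mice with the same replicate number. The deviations from the group means of same-numbered libraries had correlations of 0.12, 0.00, 0.42 and 0.14, and 3 of the 4 controls correlated best with the knockout of their own number, a hint from the data that was not enough to treat the mice as pairs. With the replicate block 3215 genes were higher and 2908 lower, and no call of the 8 factors changed (Mef2d -0.31, Myog 3.97).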
